A study of Mus musculus with 4 samples.

Results

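The genes described are 8 genes of steroid and eicosanoid biology in mouse Th2 cells: Akr1c18, Cyp11a1, Hpgds, Ptgs2, Alox5ap, Ptger2, Ptger4 and Ptgir. They were taken by symbol, and all 8 were found among the 23283 symbols of the 4 libraries, each on a single line per library. Akr1c18 was chosen by its FPKM in these same libraries, a high level in long wild-type culture that the knockout did not reach, so its genotype and culture differences describe the choice and are no finding. The other genes were added as relatives in function with the results of these data known. Of the 8 genes, 7 reached a mean of 1 FPKM over the 4 libraries and entered the comparisons, and Ptgs2 did not.

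Th2 cells are the CD4 helper T cells that make IL-4, IL-5 and IL-13. The libraries came from C57BL/6 splenic CD4 T cells that were Menin knockout (KO) or wild type (WT). Menin, encoded by Men1, is a nuclear scaffold protein that binds histone methyltransferase complexes. All 4 cultures began with 5 days in IL-2 (15 ng/ml) and IL-4 (10 ng/ml), and the KO 5-day and WT 5-day libraries were made then. The KO 3-week and WT 3-week libraries came from a longer culture, for which the labels add 2 cytokine-free days and then 5 days on immobilized antibody to the T cell receptor, in medium that held IL-2 and antibody to IL-4. These steps do not add up to the named 3 weeks. The way of deleting Menin is not stated in the sources used here. The 2 culture times therefore also differ in restimulation and in the cytokines present.

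Each group held 1 library, so no value has a replicate error, no difference was tested and no p-value is given. Values are FPKM, fragment numbers divided by transcript length and sequencing depth, a scale on which levels of different genes can be compared per length. The depth inferred from the steps of low values was 20.7 to 23.5 M reads per library. The 95% intervals given with ratios come from the reads the FPKM imply and cover counting error only. Men1 stood at 5.88 FPKM in KO and 25.4 FPKM in WT 3-week cells, and at 10.3 FPKM in KO and 32.8 FPKM in WT 5-day cells, in the direction of the genotype labels. Cd3e stood between 203 and 318 FPKM and Cd4 between 147 and 307 FPKM in the 4 libraries. Gata3 encodes the defining Th2 transcription factor. It stood at 45.9 FPKM in KO and 93.8 FPKM in WT 3-week cells, and at 69.8 and 72.8 FPKM at 5 days. Il4 stood at 6.40 FPKM in KO and 21.9 FPKM in WT 3-week cells, and at 9.71 and 6.41 FPKM at 5 days. In the same order, Il5 stood at 22.4 and 95.1 FPKM, and at 1.91 and 0.971 FPKM. Il13 stood at 19.1 and 105 FPKM, and at 3.68 and 1.62 FPKM.

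Steroid hormones are made from cholesterol. CYP11A1, a mitochondrial cytochrome P450, cuts the cholesterol side chain to give pregnenolone, and mouse Th2 cells are known to express it. AKR1C18 is an aldo-keto reductase that converts progesterone to a less active steroid. Prostaglandins and leukotrienes are made from arachidonic acid. The cyclooxygenase encoded by Ptgs2 starts prostaglandin synthesis, the synthase encoded by Hpgds makes prostaglandin D2, and the protein encoded by Alox5ap helps the lipoxygenase encoded by Alox5 to start leukotriene synthesis. Ptger2 and Ptger4 encode the EP2 and EP4 receptors of prostaglandin E2, and Ptgir encodes IP, the prostacyclin receptor. All 3 receptors couple to the stimulatory G protein and raise cyclic AMP.

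Promoter windows are shown for Akr1c18, for its cluster neighbours Akr1c13 and Akr1c12, and for Cyp11a1. The neighbours shared the highest library of Akr1c18 (WT 3-week), whereas Cyp11a1 was highest in KO 5-day cells. Each window runs from 250 bases before to 50 bases after an annotated start, is taken from RefSeq on build GRCm38.p6, and is written 5′ to 3′ on the strand of the gene. Capitals mark matches on either strand to TATAA (the TATA box) and AGGTCA (a nuclear receptor response element core). The letters GATAA of the binding motif of GATA factors were searched as well. So were TGANTCA, the motif of AP-1, and TTCNNNGAA, the motif of STAT factors. None of these 3 motifs had a match in the 4 windows.
Akr1c18, chr13:4150597-4150896, minus strand: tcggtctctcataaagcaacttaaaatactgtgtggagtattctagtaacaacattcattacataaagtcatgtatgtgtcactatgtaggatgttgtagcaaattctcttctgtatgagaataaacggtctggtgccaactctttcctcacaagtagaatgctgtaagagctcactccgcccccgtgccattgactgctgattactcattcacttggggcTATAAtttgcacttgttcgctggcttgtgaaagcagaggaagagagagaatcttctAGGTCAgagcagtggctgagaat
Akr1c13, chr13:4190937-4191236, plus strand: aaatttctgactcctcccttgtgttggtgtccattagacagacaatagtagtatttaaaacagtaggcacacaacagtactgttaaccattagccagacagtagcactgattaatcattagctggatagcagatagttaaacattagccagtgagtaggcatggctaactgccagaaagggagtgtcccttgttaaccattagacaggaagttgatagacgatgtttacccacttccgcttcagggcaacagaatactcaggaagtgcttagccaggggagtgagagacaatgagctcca
Akr1c12, chr13:4279350-4279649, minus strand: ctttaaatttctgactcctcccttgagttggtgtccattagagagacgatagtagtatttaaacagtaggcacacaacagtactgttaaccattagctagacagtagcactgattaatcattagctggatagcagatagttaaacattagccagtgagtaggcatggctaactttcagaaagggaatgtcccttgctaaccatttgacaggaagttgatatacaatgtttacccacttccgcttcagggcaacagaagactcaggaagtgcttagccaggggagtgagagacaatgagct
Cyp11a1, chr9:58014702-58015001, plus strand: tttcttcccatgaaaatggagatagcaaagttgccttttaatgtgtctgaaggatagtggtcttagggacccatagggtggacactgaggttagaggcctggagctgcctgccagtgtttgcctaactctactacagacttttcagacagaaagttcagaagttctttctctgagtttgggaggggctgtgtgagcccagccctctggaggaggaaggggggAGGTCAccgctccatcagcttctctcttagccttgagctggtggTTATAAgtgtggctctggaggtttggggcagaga

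The Akr1c18 window held TATAA at bases 222 to 226 and AGGTCA at bases 278 to 283, counted from 1 at the 5′ end. The Cyp11a1 window held AGGTCA at bases 223 to 228, and TATAA was matched on both strands in the overlapping letters at bases 267 to 272. Relative to the annotated start, the Akr1c18 TATAA lay before it at -29 to -25, and its AGGTCA after it at 27 to 32. The Cyp11a1 AGGTCA lay before its start at -28 to -23, and its TATAA matches after it at 16 to 21. Of all 32851 windows of this length in the table, 24.9% held TATAA, 16.3% AGGTCA, 25.4% GATAA, 7.81% TGANTCA and 8.3% TTCNNNGAA. The Akr1c12 and Akr1c13 windows were 95.9% identical over 296 aligned bases. The Akr1c18 window was 59.3% identical to that of Akr1c13 over 263 aligned bases and 57.5% identical to that of Akr1c12 over 268. A window was found for 7 of the 8 genes. Cyp11a1 has a second annotated start with a window at chr9:57997774-57998073, which held no match to the 5 motifs. That window lies before the gene span of 58006411 to 58027023 given below, and the printed window lies inside the span. Gm17322, a long noncoding RNA gene at 57998041 to 58007451 on the same strand, starts within that second window. It overlaps Cyp11a1 and was not among the measured symbols. Among the other genes the Ptger2 window held 1 GATAA, and the windows of Hpgds, Ptgs2, Ptger4 and Ptgir held no match. The windows describe sequence, and binding of any factor was not measured.

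In the 3-week culture Akr1c18 (chromosome 13, 4132615 to 4150654, minus strand, GRCm38) stood at 8.96 FPKM in KO cells, against 204 FPKM in WT cells. In the 5-day culture it stood at 3.26 FPKM in KO cells and 12 FPKM in WT cells. The WT 3-week library thus held far more Akr1c18 RNA than any of the other 3, and the KO 5-day library held the least. The KO level was 4.39% of WT at 3 weeks (counting interval 3.78% to 5.07%) and 27.3% of WT at 5 days (20.8% to 35.5%). The 3-week level was 17.1-fold the 5-day level in WT cells (15.0 to 19.4) and 2.75-fold in KO cells (2.09 to 3.64), so the longer culture had the higher value in both genotypes. These ratios chose the gene. Of 10973 compared genes, 96.9% stood below Akr1c18 in WT 3-week cells and 17.2% in KO 5-day cells. Its transcript is short, and the reads behind the 4 values were about 192 in KO 3-week, 4803 in WT 3-week, 73.9 in KO 5-day and 248 in WT 5-day.

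**Figure D1:**
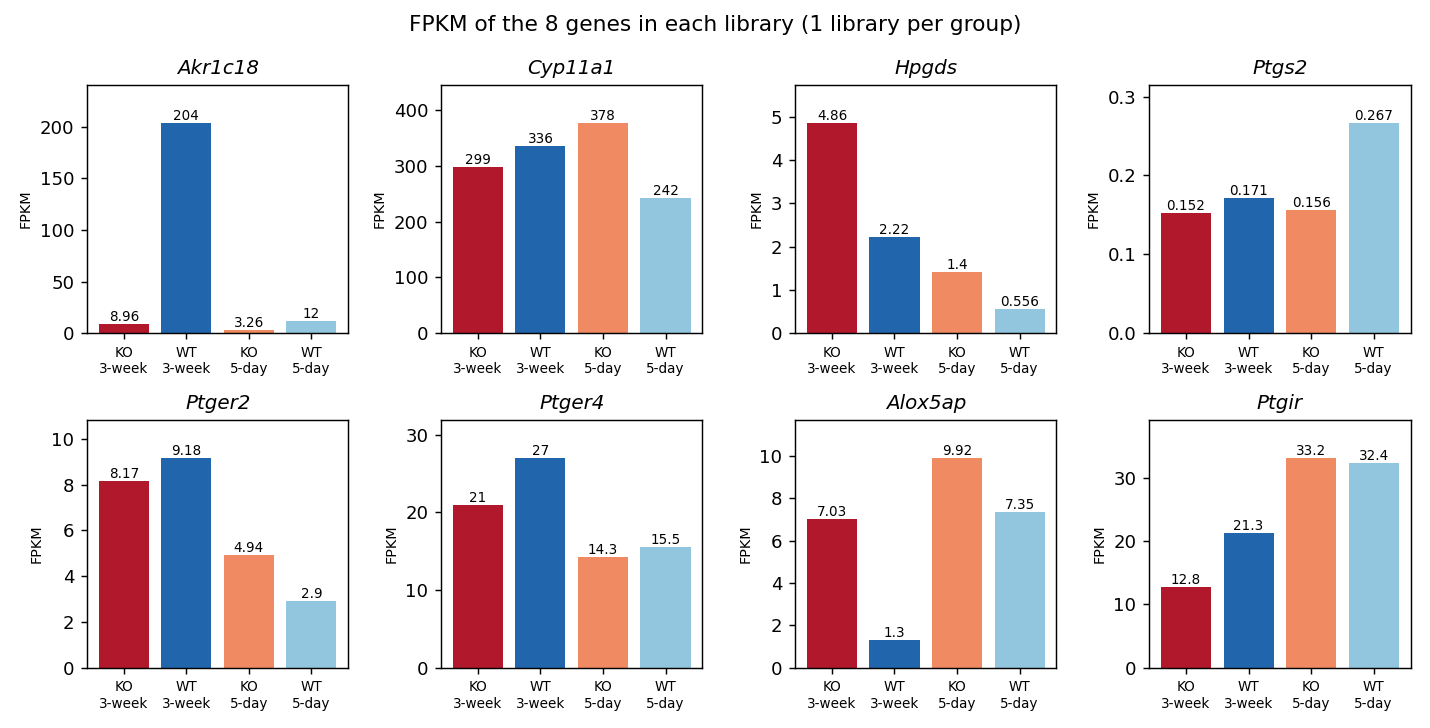
Bars give the FPKM of each of the 8 genes in the KO 3-week, WT 3-week, KO 5-day and WT 5-day libraries, on a linear axis that starts at 0 and differs between panels. Akr1c18 stands at 204 FPKM in WT 3-week cells and at 12 FPKM or less in the other 3 libraries, whereas Cyp11a1 stays between 242 and 378 FPKM.

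Akr1c18 lies in a cluster of aldo-keto reductase genes on chromosome 13, and 3 of the 8 listed cluster genes reached a mean of 1 FPKM. Akr1c13 (chromosome 13, 4191150 to 4205596) stood at 64.8 FPKM in KO and 131 FPKM in WT 3-week cells, and at 25.9 FPKM in KO and 27.2 FPKM in WT 5-day cells. Akr1c12 (chromosome 13, 4268176 to 4279433) stood at 40.2 FPKM in KO and 111 FPKM in WT 3-week cells, and at 20.1 FPKM in KO and 24.9 FPKM in WT 5-day cells. Both neighbours were highest in WT 3-week cells. Their KO 3-week level was 49.4% of WT for Akr1c13 (46.4% to 52.6%) and 36.1% for Akr1c12 (33.4% to 38.9%). In the 5-day culture the KO level was 95.1% of WT for Akr1c13 (84.9% to 107%) and 80.6% for Akr1c12 (71.2% to 91.2%). The other 5 cluster genes, Akr1c6, Akr1c14, Akr1c19, Akr1c20 and Akr1c21, stood under 1 FPKM in all 4 libraries.

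Akr1c12 and Akr1c13 transcripts are 94.6% identical, so reads could be split between them by the authors' counting and their single values are uncertain. Akr1c18 transcripts are 73.3% identical to those of Akr1c12 and 73.1% identical to those of Akr1c13. The log2 ratio of Akr1c13 at 3 weeks, on the scale of log2((KO FPKM + 1)/(WT FPKM + 1)), was -1.01 and lay at the 2-fold rule. It was -0.89 with median-of-ratios scaling.

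Cyp11a1 (chromosome 9, 58006411 to 58027023, plus strand) was the most abundant of the 8 genes in every library. It stood at 299 FPKM in KO and 336 FPKM in WT 3-week cells. It stood at 378 FPKM in KO and 242 FPKM in WT 5-day cells. Between 97.6% and 98.4% of compared genes stood below it, in each of the 4 libraries. The KO to WT ratio was 0.889 at 3 weeks (0.868 to 0.910) and 1.56 at 5 days (1.52 to 1.6), on opposite sides of 1. The 3-week difference was small, at -0.17 on the log2(FPKM + 1) scale, and was -0.05 with median-of-ratios scaling and -0.03 with upper-quartile scaling. Set side by side, there were 33.3 Cyp11a1 FPKM for each Akr1c18 FPKM in KO 3-week cells and 1.65 in WT 3-week cells. In the 5-day culture there were 116 in KO cells and 20.3 in WT cells. These figures differ mainly through Akr1c18, which was chosen by its values, so they are no finding.

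**Figure D2:**
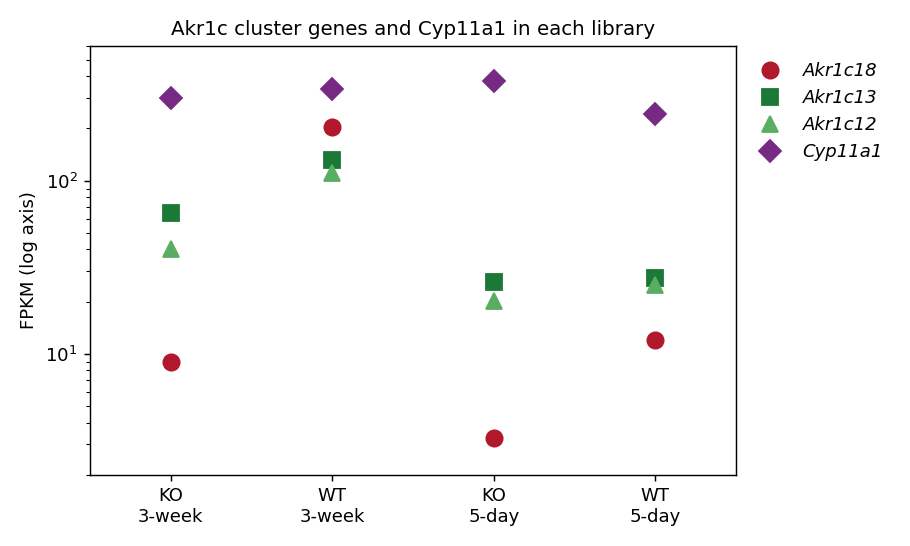
Points give FPKM on a log axis for Akr1c18, Akr1c13, Akr1c12 and Cyp11a1 in each library. The 3 cluster genes are each highest in WT 3-week cells, while Cyp11a1 lies at 242 FPKM or more in all 4.

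Many of the other steroid synthesis genes had little or no RNA. Of 32 listed genes 31 were measured, 14 stood under 1 FPKM in all 4 libraries and 10 were listed at 0 in all 4. The 10 include Hsd3b1, Hsd3b2 and Hsd3b6, which encode the enzymes that turn pregnenolone into progesterone, as well as Cyp21a1, Cyp11b1 and Cyp19a1 of later steps, and Nr5a1, the gene of the steroidogenic transcription factor SF-1. Cyp17a1 was listed at 0 in 3 libraries and stood at 0.0515 FPKM in WT 3-week cells. Star, whose protein brings cholesterol to the inner mitochondrial membrane, stood at 0.801 FPKM in KO and 0.932 FPKM in WT 3-week cells, and at 0.900 FPKM in KO and 1.07 FPKM in WT 5-day cells. The electron donors of CYP11A1 were present, with Fdx1 between 10.7 and 18.6 FPKM and Fdxr between 8.11 and 9.06 FPKM.

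Of the 16 compared steroid synthesis genes, 1 lay 2-fold or more above WT in KO 3-week cells and 2 lay 2-fold or more below it, counted on the log2(FPKM + 1) scale. Of all 10973 compared genes, 7.97% lay above, 8.19% below and 16.2% either way. The 2 lower genes were Akr1c18 and Hsd17b7. The higher gene was Hsd11b1, which encodes an enzyme that regenerates active glucocorticoid. It stood at 31.0 FPKM in KO and 1.51 FPKM in WT 3-week cells, and at 7.58 FPKM in KO and 4.70 FPKM in WT 5-day cells, so the libraries with the highest and the lowest value were both from the longer culture. Hsd11b1 overlaps Lamb3 on the opposite strand, and the use of strand in counting is not stated. Lamb3 stood between 0.449 and 1.62 FPKM. With either of the other scalings Tspo, a cholesterol-binding protein gene at 155 FPKM in KO and 80.8 FPKM in WT 3-week cells, passed 2-fold as well. The list median was -0.15, against -0.08 over all compared genes. At 5 days 0 of the 16 lay above by that rule and 1, Akr1c18, below, against 2.77% and 0.82% of all compared genes and 3.59% either way. The list median was then 0.02 against -0.02.

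Among 9 compared steroid receptor and response genes, KO 3-week cells had 1 higher and 1 lower gene by the 2-fold rule, and KO 5-day cells had 0 either way. These counts stand beside 7.97% higher and 8.19% lower of all compared genes at 3 weeks, and 2.77% and 0.82% at 5 days. With a pseudocount of 5 FPKM 1 gene passed at 3 weeks. The medians were -0.22 and 0.04, against -0.08 and -0.02 over all compared genes. Tsc22d3, a gene induced by glucocorticoid, stood at 22 FPKM in KO and 9.56 FPKM in WT 3-week cells, and at 27.0 FPKM in KO and 23.1 FPKM in WT 5-day cells. Fkbp5, another gene of the list, did not reach 2-fold. It stood at 53.8 FPKM in KO and 46.2 FPKM in WT 3-week cells, and at 60.4 and 65.8 FPKM at 5 days. Fkbp4, a co-chaperone of steroid receptors, was the lower gene, at 34.9 FPKM in KO and 84.7 FPKM in WT 3-week cells. The glucocorticoid receptor gene Nr3c1 stood between 16.7 and 19.8 FPKM. The progesterone receptor gene Pgr stood at 0.0197 FPKM or less.

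Ptgs2 (chromosome 1, 150100031 to 150108227, plus strand) was close to absent. It stood at 0.152 FPKM in KO and 0.171 FPKM in WT 3-week cells, and at 0.156 FPKM in KO and 0.267 FPKM in WT 5-day cells. These values imply about 13.9 to 23.5 reads, and each of the 4 ratios between libraries had an interval that included 1, for example 0.889 for KO against WT at 3 weeks (0.413 to 1.95). A difference between libraries was therefore not detectable at this depth. The gene of the other cyclooxygenase, Ptgs1, stood at 0.676 FPKM in KO and 0.159 FPKM in WT 3-week cells, and at 0.363 FPKM in KO and 0.0360 FPKM in WT 5-day cells.

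Hpgds (chromosome 6, 65117293 to 65144908, minus strand) was a low gene with the same order of genotypes at both times. It stood at 4.86 FPKM in KO and 2.22 FPKM in WT 3-week cells. It stood at 1.40 FPKM in KO and 0.556 FPKM in WT 5-day cells. Levels were higher in KO than in WT and higher in the longer culture in each genotype. The KO to WT ratio was 2.19 at 3 weeks (1.82 to 2.65) and 2.52 at 5 days (1.71 to 3.73), with intervals that overlap. The ratio of the longer to the shorter culture was 3.46 in KO cells (2.77 to 4.36) and 3.99 in WT cells (2.77 to 5.79). On the log2(FPKM + 1) scale, which understates differences of low genes, the genotype values were 0.86 and 0.63 and did not reach the 2-fold rule. With a pseudocount of 0.1 they were 1.10 and 1.20 and did.

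Hpgds is also a gene of mast cells, so mast cell and basophil markers are given beside it. Of the 12 listed markers 2 were compared and 5, Ms4a2, Tpsb2, Tpsab1, Mcpt4 and Prss34, were listed at 0 in all 4 libraries. Fcer1a, the gene of the alpha chain of the IgE receptor, stood at 0.0561 FPKM or less. The 12 markers summed to 19.9 FPKM in KO and 10.6 FPKM in WT 3-week cells, and to 25.8 FPKM in KO and 15.1 FPKM in WT 5-day cells. Most of these sums came from Cpa3, a mast cell protease gene, which stood at 10.2 FPKM in both 3-week libraries, at 21.6 FPKM in KO 5-day cells and at 14.4 FPKM in WT 5-day cells. Mcpt8, a basophil protease gene, stood at 7.93 FPKM in KO and 0.266 FPKM in WT 3-week cells, and at 2.63 FPKM in KO and 0.0754 FPKM in WT 5-day cells. In the same order, Cma1 stood at 1.16 and 0.0484 FPKM, and at 0.604 and 0.219 FPKM. Kit stood at 0.130 and 0 FPKM, and at 0.793 and 0.116 FPKM. Hdc stood at 0.424 and 0.0582 FPKM, and at 0.101 and 0.242 FPKM, so its genotype order differed between the times. Gata2 stood at 0.0577 FPKM or less. The part of these markers in the Hpgds values was not tested. In bulk RNA, fewer cells of a type and less RNA per cell cannot be told apart.

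Among 10 compared genes of prostanoid synthesis and breakdown, KO 3-week cells had 0 higher and 1 lower by the 2-fold rule, and KO 5-day cells had 0 either way. The all-gene shares were 7.97% higher and 8.19% lower at 3 weeks, and 2.77% and 0.82% at 5 days. The medians were 0.00 and 0.25, against -0.08 and -0.02 over all compared genes. With either of the other scalings Akr1b3, an aldo-keto reductase gene, passed 2-fold as well, at 1.01 and 1.02. The lower gene was Pla2g12a, a secreted phospholipase gene, at 9.32 FPKM in KO and 35.0 FPKM in WT 3-week cells, and at 42.3 FPKM in KO and 56.4 FPKM in WT 5-day cells. Hpgds was the 1 gene of this list with a 2-fold higher level in the longer culture, and it was so in each genotype. Of all compared genes 4.35% were higher by this rule in KO cells, 4.39% lower and 8.74% either way. In WT cells 3.03% were higher, 2.83% lower and 5.86% either way. Of the other prostanoid synthase genes, Ptges3, which encodes a cytosolic prostaglandin E synthase, stood at 34.7 FPKM in KO and 58.5 FPKM in WT 3-week cells, and at 42.8 FPKM in KO and 56.0 FPKM in WT 5-day cells. Ptges2, the gene of a membrane-associated prostaglandin E synthase, stood between 4.87 and 6.61 FPKM. Others were low. Ptgds was listed at 0 in all 4 libraries, Ptgis and Ptges stood under 1 FPKM in all 4, and Pla2g4a, the gene of the main arachidonate-releasing phospholipase, stood at 0.116 FPKM or less.

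Alox5ap (chromosome 5, 149264767 to 149288153, plus strand) was lowest in WT 3-week cells. It stood at 7.03 FPKM in KO and 1.3 FPKM in WT 3-week cells. It stood at 9.92 FPKM in KO and 7.35 FPKM in WT 5-day cells. The WT 3-week value, from about 32.1 reads, lay well below those of the other 3 libraries. The KO level was 5.42-fold WT at 3 weeks (3.69 to 8.20) and 1.35-fold at 5 days (1.10 to 1.66). In WT cells the longer culture held 17.6% of the 5-day level (11.6% to 25.9%), and in KO cells 70.8% (57.5% to 86.9%). An antisense gene overlaps Alox5ap, and without the use of strand their reads cannot be told apart.

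Alox5, the lipoxygenase gene itself, stood at 2.48 FPKM in KO and 0.257 FPKM in WT 3-week cells, and at 0.585 FPKM in KO and 0.164 FPKM in WT 5-day cells. It did not reach a mean of 1 FPKM. Its ratio of KO to WT was 9.64 at 3 weeks (5.67 to 17.2) and 3.57 at 5 days (1.68 to 8.41). Both genes thus stood higher in KO at both times, but their ratios of the longer to the shorter KO culture lay on opposite sides of 1, at 0.708 for Alox5ap and 4.24 for Alox5. Ltc4s, the gene of leukotriene C4 synthase, stood at 0.329 FPKM or less. Lta4h, whose enzyme makes leukotriene B4, was abundant at 50.6 FPKM in KO and 112 FPKM in WT 3-week cells, and at 56.6 FPKM in KO and 65.4 FPKM in WT 5-day cells.

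The leukotriene receptor genes differed in their order. Cysltr1 stood at 27.2 FPKM in KO and 63.8 FPKM in WT 3-week cells, and at 27.1 FPKM in KO and 19.8 FPKM in WT 5-day cells. Cysltr2, the second cysteinyl leukotriene receptor gene, stood at 14.8 FPKM in KO and 3.98 FPKM in WT 3-week cells, and at 2.45 FPKM in KO and 0.714 FPKM in WT 5-day cells. Ltb4r1, the leukotriene B4 receptor gene, stood at 79.6 FPKM in KO and 89.4 FPKM in WT 3-week cells, and at 51.3 FPKM in KO and 21.9 FPKM in WT 5-day cells. All 3 receptor genes had a higher level in the longer culture in WT cells, and Cysltr1 was at 27.2 and 27.1 FPKM in the 2 KO libraries. Cysltr1 overlaps Gm5127 on the opposite strand, and Gm5127 stood between 3.72 and 9.83 FPKM. Of the 9 compared leukotriene and lipoxygenase genes, KO 3-week cells had 2 higher and 2 lower by the 2-fold rule, and KO 5-day cells 3 higher and 0 lower. The shares of all compared genes were 7.97% higher and 8.19% lower at 3 weeks, and 2.77% and 0.82% at 5 days. With a pseudocount of 5 FPKM 3 genes passed at 3 weeks and 1 at 5 days. Lta4h fell just short of 2-fold, at -0.998, with upper-quartile scaling. The list medians were 0.03 and 0.39, against -0.08 and -0.02 over all compared genes.

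Alox5ap and Alox5 are also genes of myeloid cells. All 11 macrophage and dendritic cell markers were measured, and 3 were compared. By the 2-fold rule all 3, Cd68, Itgam and Itgax, were higher in KO at 3 weeks, and 1, Itgax, at 5 days. Of all compared genes 7.97% were higher at 3 weeks and 2.77% at 5 days. The list summed to 28.7 FPKM in KO and 3.60 FPKM in WT 3-week cells, and to 13.7 FPKM in KO and 4.80 FPKM in WT 5-day cells. The sums came mainly from Cd68, Itgax and Itgam in KO 3-week cells, and from Cd68, Itgax and Emr1 in KO 5-day cells. In WT cells they came mainly from Cd68. Cd68 stood at 12.9 FPKM in KO and 3.25 FPKM in WT 3-week cells, and at 8.35 and 3.98 FPKM at 5 days. In the same order, Itgax stood at 8.63 and 0.0497 FPKM, and at 2.45 and 0.0501 FPKM. Itgam stood at 4.75 and 0.0283 FPKM, and at 0.392 and 0.203 FPKM. The other 8 markers differed among themselves. Cd14 stood at 2.03 FPKM in KO and 0.0978 FPKM in WT 3-week cells, and at 0.509 FPKM in KO 5-day cells, and was listed at 0 in WT 5-day cells. Emr1, the gene of F4/80, stood at 0.364 FPKM in KO and 0.0693 FPKM in WT 3-week cells, and at 1.82 FPKM in KO and 0.440 FPKM in WT 5-day cells. Lyz2 was listed at 0 in KO 3-week cells and stood at 0.154 FPKM or less in the others, and Csf1r was listed at 0 in both 3-week libraries and stood at 0.0130 FPKM or less at 5 days. Fcgr1, Marco, Clec9a and Siglech stood at 0.0200 FPKM or less. The summed markers had their lowest value in WT 3-week cells, as Alox5ap did, but were higher in KO 3-week than in KO 5-day cells, as Alox5 was. Their part in these values was not tested.

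Among the receptors, Ptger4 (chromosome 15, 5206661 to 5244187, minus strand) stood at 21.0 FPKM in KO and 27.0 FPKM in WT 3-week cells. It stood at 14.3 FPKM in KO and 15.5 FPKM in WT 5-day cells. Levels were higher in the longer culture, 1.47-fold in KO cells (1.35 to 1.59) and 1.74-fold in WT cells (1.62 to 1.88). The KO to WT ratio was 0.776 at 3 weeks (0.724 to 0.831) and 0.922 at 5 days, where the interval of 0.845 to 1.01 included 1. Ptger4 overlaps Ttc33 on the opposite strand, which stood between 11.9 and 14.2 FPKM.

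Ptger2 (chromosome 14, 44988195 to 45003820, plus strand) stood at 8.17 FPKM in KO and 9.18 FPKM in WT 3-week cells. It stood at 4.94 FPKM in KO and 2.90 FPKM in WT 5-day cells. Its levels were again higher in the longer culture, 1.65-fold in KO cells (1.45 to 1.88) and 3.17-fold in WT cells (2.72 to 3.71), intervals that do not overlap. The KO to WT ratio was 0.890 at 3 weeks (0.798 to 0.991) and 1.70 at 5 days (1.44 to 2.03). On the log2(FPKM + 1) scale the 3-week value was -0.15, and -0.04 with median-of-ratios and -0.03 with upper-quartile scaling. An annotated antisense gene spans all of Ptger2.

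Ptgir (chromosome 7, 16906490 to 16910905, plus strand) ran the other way across culture time. It stood at 12.8 FPKM in KO and 21.3 FPKM in WT 3-week cells. It stood at 33.2 FPKM in KO and 32.4 FPKM in WT 5-day cells. The longer culture held 38.6% of the 5-day level in KO cells (35.7% to 41.8%) and 65.7% in WT cells (61.4% to 70.1%). The KO to WT ratio was 0.603 at 3 weeks (0.554 to 0.656) and 1.02 at 5 days, where the interval of 0.965 to 1.09 included 1.

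The 3 receptors together stood at 42.0 FPKM in KO and 57.5 FPKM in WT 3-week cells, and at 52.4 FPKM in KO and 50.8 FPKM in WT 5-day cells. In these 4 libraries their make-up differed more between culture times than between genotypes. Ptgir made up 30.6% of the sum in KO and 37.0% in WT 3-week cells, against 63.3% in KO and 63.8% in WT 5-day cells. Ptger4 made up 49.99% in KO and 47.0% in WT 3-week cells, against 27.3% in KO and 30.5% in WT 5-day cells. Ptger2 made up 19.5% in KO and 16.0% in WT 3-week cells, against 9.41% in KO and 5.7% in WT 5-day cells.

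**Figure D3:**
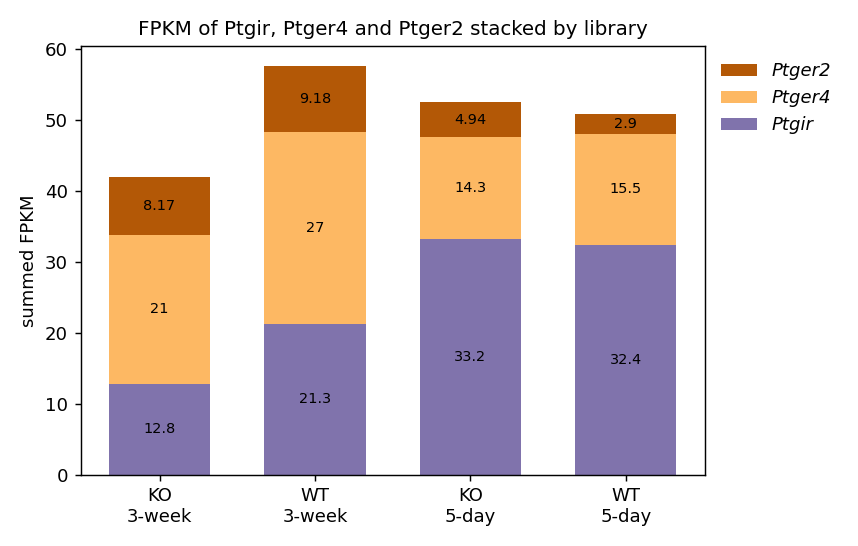
Stacked bars give the FPKM of Ptgir, Ptger4 and Ptger2 in each library, with the values printed inside. Ptgir is the largest share in both 5-day libraries and Ptger4 in both 3-week libraries.

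Other prostanoid receptor genes were measured beside these. Of 9 measured genes 6 were compared, and KO 3-week cells had 1 higher and 0 lower by the 2-fold rule, KO 5-day cells 0 either way. Of all compared genes 7.97% were higher and 8.19% lower at 3 weeks, and 2.77% and 0.82% at 5 days. With a pseudocount of 5 FPKM or a mean of at least 5 FPKM 0 receptor genes passed at 3 weeks. The medians were -0.04 and 0.14, against -0.08 and -0.02 over all compared genes. The higher gene was Ptger3, the gene of EP3, which couples to an inhibitory G protein. It stood at 5.72 FPKM in KO and 0.418 FPKM in WT 3-week cells, and at 0.847 FPKM in KO and 0.554 FPKM in WT 5-day cells. The ratio at 3 weeks was 13.7 (9.38 to 20.8), whereas that at 5 days was 1.53 with an interval of 0.985 to 2.42 that included 1. Ptger1, the gene of EP1, was listed with the highest value of the 9 receptor genes in each library, 42.8 FPKM in KO and 40.9 FPKM in WT 3-week cells, and 55.0 FPKM in KO and 43.8 FPKM in WT 5-day cells. The use of strand in counting is not stated, and this value is uncertain. Tbxa2r, the thromboxane receptor gene, stood at 0.457 FPKM in KO and 0.148 FPKM in WT 3-week cells, and at 4.91 FPKM in KO and 7.86 FPKM in WT 5-day cells. Gpr44, an earlier symbol of Ptgdr2 and the gene of the Th2 receptor of prostaglandin D2, stood at 1.43 FPKM in KO 3-week cells and at 0.0926 FPKM in KO and 0.0608 FPKM in WT 5-day cells. In WT 3-week cells it had a value near 0, and no ratio is given.

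The cyclic AMP pathway below EP2, EP4 and IP held 23 compared genes, of which KO 3-week cells had 7 higher and 1 lower by the 2-fold rule. KO 5-day cells had 3 higher and 0 lower. Among all compared genes 7.97% were higher and 8.19% lower at 3 weeks, and 2.77% and 0.82% at 5 days. The counts depended on the low values: with a pseudocount of 5 FPKM 2 genes passed at 3 weeks and 0 at 5 days, and with a mean of at least 5 FPKM 5 and 1 did. The list medians were 0.42 and 0.20, against -0.08 and -0.02 over all compared genes. The higher genes at 3 weeks were Adcy7, Arrb1, Rapgef3 and the phosphodiesterase genes Pde4a, Pde4b, Pde7a and Pde8a, whose enzymes break down cyclic AMP. The listed phosphodiesterase genes Pde3b and Pde4d did not pass, at log2 ratios of 0.27 and 0.42. The higher genes at 5 days were Grk5, Pde4a and Rapgef3. Pde4b stood at 21.4 FPKM in KO and 8.01 FPKM in WT 3-week cells, and at 20.6 FPKM in KO and 10.4 FPKM in WT 5-day cells. Pde8a stood at 7.30 FPKM in KO and 1.51 FPKM in WT 3-week cells, and at 5.22 FPKM in KO and 2.16 FPKM in WT 5-day cells. Arrb1, a beta-arrestin gene, stood at 14.2 FPKM in KO and 2.45 FPKM in WT 3-week cells, and at 9.94 FPKM in KO and 6.23 FPKM in WT 5-day cells. The adenylyl cyclase genes included 1 higher gene, Adcy7, at 66.2 FPKM in KO and 31.6 FPKM in WT 3-week cells, and 1 lower gene, Adcy6, at 3.77 FPKM in KO and 10.5 FPKM in WT 3-week cells.

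**Figure D4:**
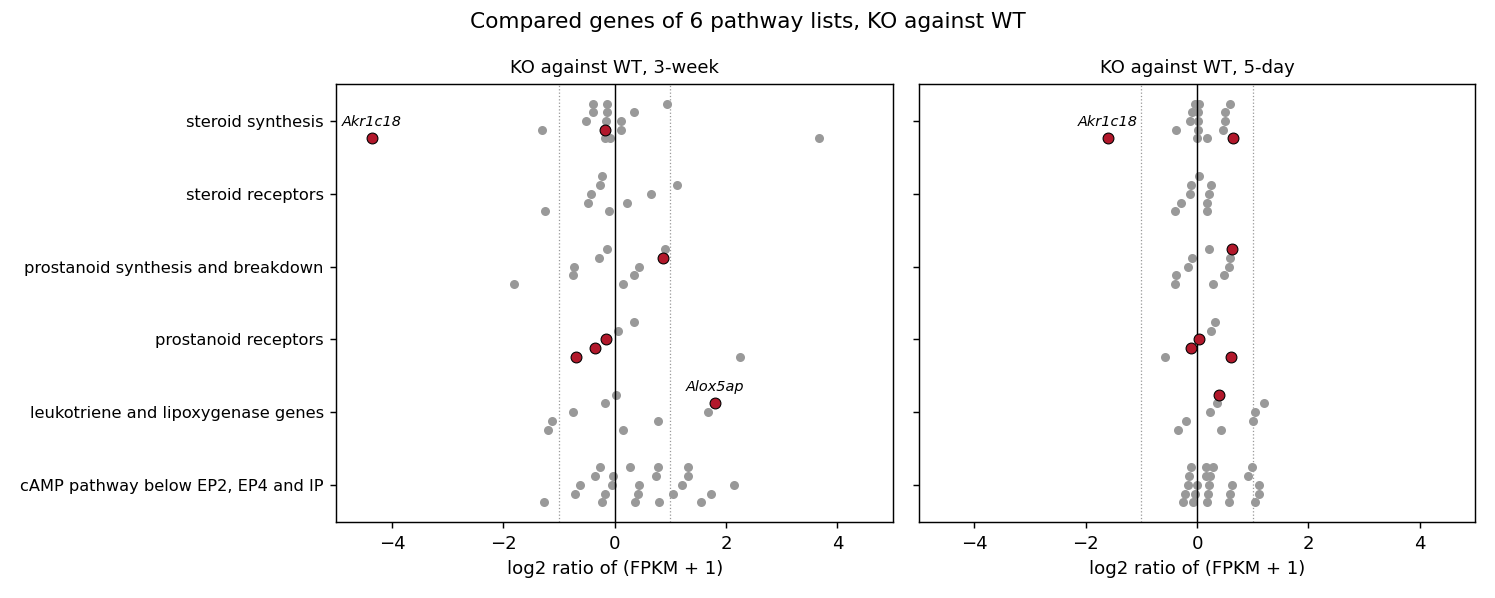
Points give the log2 ratio of (FPKM + 1), KO over WT, for every compared gene of 6 lists at 3 weeks (left) and 5 days (right). Filled red points are the described genes, and dotted lines mark 2-fold. Akr1c18 at -4.36 and Alox5ap at 1.80 are the 2 described genes past 2-fold at 3 weeks.

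Across the 7 compared genes, KO 3-week cells had 1 higher (Alox5ap) and 1 lower (Akr1c18) by the 2-fold rule, beside the 7.97% and 8.19% of all compared genes. KO 5-day cells had 0 higher and 1 lower (Akr1c18), beside 2.77% and 0.82%. The longer culture of WT cells had 3 higher genes, Akr1c18, Hpgds and Ptger2, and 1 lower gene, Alox5ap, beside 3.03% and 2.83%. The longer culture of KO cells had 2 higher genes, Akr1c18 and Hpgds, and 1 lower gene, Ptgir, beside 4.35% and 4.39%. The genes were chosen with these values known, so nothing is read from these shares. The medians of the 7 genes were -0.17 and 0.39 for KO against WT at 3 weeks and 5 days, against -0.08 and -0.02 over all compared genes. They were 0.52 and 0.76 for the longer against the shorter culture in KO and WT cells, against -0.06 and 0.01.

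With median-of-ratios or upper-quartile scaling the median log2 ratio of all genes in KO against WT at 3 weeks was 0.02 and 0.03, against -0.08 on the deposited scale. The split of the 3-week genotype calls over all genes was then 1019 higher and 694 lower, and 1036 higher and 680 lower, against 874 higher and 899 lower. No called value of the 7 genes turned its direction. The difference between the genotype contrasts at the 2 times reached 4-fold for Akr1c18, at -2.76 on the log2 scale. Akr1c18 was chosen by this pattern, so its value is no finding. None of the other 6 genes reached 4-fold, beside 0.784% of compared genes lower by 4-fold, 1.26% higher and 2.04% either way. The values of those 6 genes ran from -0.81 for Cyp11a1 to 1.42 for Alox5ap.

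**Figure D5:**
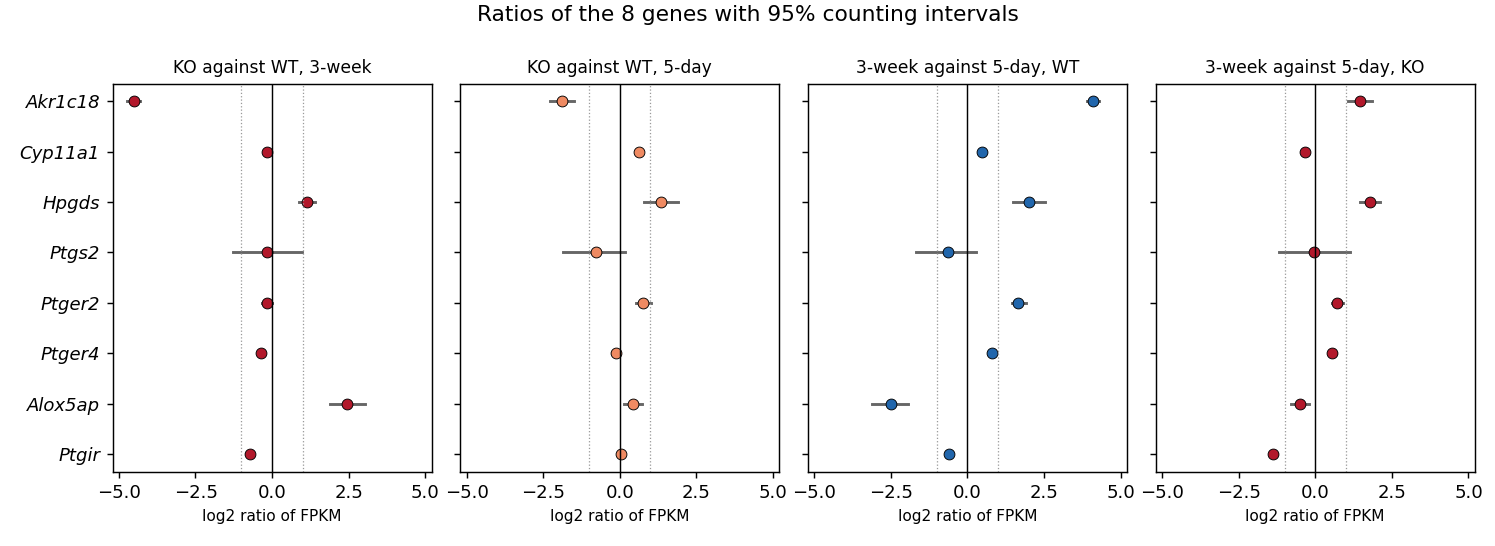
Points give the log2 ratio of FPKM, without pseudocount, for the 8 genes in the 4 comparisons, and lines give the 95% counting interval. The Ptgs2 intervals cross 0 in all 4 comparisons. Those of Akr1c18, Cyp11a1, Hpgds, Ptger2 and Alox5ap cross 0 in none, and Akr1c18 was chosen by these ratios.

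Genes of similar pattern were named by the Euclidean distance between profiles of log2(FPKM + 1) over the 4 libraries, each centred on its own mean. For Akr1c18 the 5 nearest of 8822 genes were Msc at a distance of 0.893, Htr1b at 1.37, Il24 at 1.42, Lta at 1.68 and Grp at 1.79, against a median distance of 4.18. All 5 had their highest level in WT 3-week cells, which follows from their choice by closeness to Akr1c18. For example, Grp stood at 0.280 FPKM in KO and 10.2 FPKM in WT 3-week cells, and at 0.333 FPKM in KO and 1.02 FPKM in WT 5-day cells.

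For Alox5ap the nearest were Prss16, Tmem176b, Osbpl5, Tmem176a and Lgals7, at distances of 0.132 to 0.240. Tmem176a stood at 6.06 FPKM in KO and 1.13 FPKM in WT 3-week cells, and at 10.3 FPKM in KO and 8.0 FPKM in WT 5-day cells. For Hpgds they were Lrp12, 0610010O12Rik, Rnf13, Acot7 and Ifitm6, at 0.162 to 0.210. For Ptgir they were Tspan32, Cenpp, Ccdc64, Cxcr3 and Gimap4, at 0.0415 to 0.168. For Ptger2 they were Ak1, Acvr1, Gbp10, Ptpn13 and F2r, at 0.147 to 0.180, and for Ptger4 Gpld1, Gbp11, Taf9b, Etfb and Slc33a1, at 0.0528 to 0.113. For Cyp11a1 they were Gcfc1, Plcb3, Elk3, Bad and Gm6642, at 0.0553 to 0.111. Ptgs2, with its nearly flat profile near 0, was nearest to Nt5m, Zfp866, 1110008F13Rik, Sf3b1 and 2810008D09Rik, at 0.0147 to 0.0266. The distances rest on 4 libraries and only describe them.

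Of 13 compared Th2 genes, KO 3-week cells had 0 higher and 10 lower by the 2-fold rule, with a median of -1.18, and 8 of the 10 remained past 2-fold under median-of-ratios or upper-quartile scaling. With a pseudocount of 5 FPKM 6 genes passed. KO 5-day cells had 1 higher and 0 lower, with a median of 0.27. The shares over all compared genes were 7.97% and 8.19% at 3 weeks, and 2.77% and 0.82% at 5 days. The medians over all compared genes were -0.08 and -0.02. Pparg, a nuclear receptor gene of Th2 cells, stood at 21.9 FPKM in KO and 64.1 FPKM in WT 3-week cells, and at 27.2 FPKM in KO and 22.3 FPKM in WT 5-day cells. At 3 weeks 12 of the 13 Th2 genes lay below 0 and 1 above, while 43.9% of all compared genes lay above 0. Hpgds and Alox5ap stood higher in KO at 3 weeks, and a link to the Th2 genes was not tested. Markers of CD8 T and NK cells summed to 20.9 FPKM in KO and 2.83 FPKM in WT 3-week cells, and to 20.3 FPKM in KO and 7.5 FPKM in WT 5-day cells. B cell markers summed to 0.278 FPKM in KO and 0.177 FPKM in WT 3-week cells, and to 2.86 FPKM in KO and 1.62 FPKM in WT 5-day cells. The part of either list in the values of the 8 genes was not tested.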

How the data were processed

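Per the labels' protocols, TRIzol was used for RNA and a stranded TruSeq mRNA kit for libraries. The authors deposited FPKM, a unit inferred from the naming of Cufflinks and from the values. The authors' tools were Bowtie 0.12.8, TopHat 1.3.2 and Cufflinks 2.0.2 on build mm10, per the submitters' processing notes. No source used here states the annotation, the filters or the use of strand.

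Each library held 23746 lines. FPKM of the 240 symbols on several lines were summed, and 1 symbol with a cell that was not a number was left out. Genes with a mean of at least 1 FPKM were compared (10973) on log2((a + 1)/(b + 1)), and counted at 2-fold, or at 4-fold for the difference of the genotype contrasts. Depth was set, for each library, to the value that brought most single-transcript genes of GENCODE M21 (at least 600 bases, length reduced by 200) to whole reads. Of their values between 0.5 and 5.5 reads, 59.8% to 62.6% lay within 0.05 of a whole number, against 10% for evenly spread values. Ratio intervals are exact Clopper-Pearson intervals of the read share, for the longest coding transcript. Named genes were the 8 genes, Men1, list members past 2-fold between the genotypes, partner enzymes or receptors of a described gene, defining markers, and the 5 genes of most similar pattern with at least 5 FPKM in a library, short RNA genes left out. Ttc33, Lamb3 and Gm5127 were added as overlapping genes after the values were seen. Fkbp5 was added from the steroid receptor list, also after the values were seen. A further item is not reported here. The genes and lists were chosen with earlier results of these data known. Ptgdr2 and Adgre1 were measured under their older symbols Gpr44 and Emr1, which the lists also held. Icer, Hsd17b8 and Trac had no matching symbol. Python 3.11.15, NumPy 2.4.6, pandas 2.3.3, SciPy 1.17.1 and Matplotlib 3.10.9 were used, and the steps were tested on simulated data. Alternatives were pseudocounts of 0.1 and 5 FPKM, other filters, median-of-ratios and upper-quartile scaling, and the highest line of each symbol.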

Additional observations from a re-analysis of the deposited data

Results flagged for a closer look

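The genotype difference of Cyp11a1 lay on opposite sides of 1 at the 2 culture times, with a KO to WT ratio of 0.889 at 3 weeks and 1.56 at 5 days. Its culture difference did so as well, with a ratio of the longer to the shorter culture of 0.791 in KO cells and 1.39 in WT cells. Ptger2 had a KO to WT ratio of 0.890 at 3 weeks and 1.70 at 5 days. The counting interval of each of these ratios excluded 1 on the deposited scale, and no interval was computed under another scaling. With 1 library in each group the differences between these ratios were not tested. The 3-week genotype values depended on scaling. On the log2(FPKM + 1) scale Cyp11a1 was at -0.17 as deposited and -0.03 with upper-quartile scaling, and Ptger2 at -0.15 and -0.03.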

How the results depend on the processing

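No paired analysis was possible because each group held 1 library and the labels give no replicate numbers, and for the same reason no library could be left out. A pseudocount of 5 FPKM lowered the counts of genes past the fold rule to 898 for KO against WT at 3 weeks, 178 at 5 days, 468 and 276 for the longer culture in KO and WT cells, and 132 for the difference of the genotype contrasts, against 1773, 394, 959, 643 and 224. It lowered the values of the 7 compared genes past the rule from 11 to 5 and those of the lists from 108 to 54. A pseudocount of 0.1 FPKM gave 642 genes at 5 days and 398 for the difference. A mean of at least 5 FPKM gave 421 for the longer WT culture. Under a pseudocount of 5 the log2 values that no longer reached 2-fold were those of Alox5ap for KO against WT at 3 weeks (0.93) and for the longer WT culture (-0.97), of Hpgds for the longer culture in KO (0.62) and WT cells (0.38), of Akr1c18 for the longer KO culture (0.76) and of Ptger2 for the longer WT culture (0.84). Of the 200 alternative log2 values of the 8 genes, 161 moved by less than their counting interval and 39 by more. The 161 include all values for the highest line of each symbol, which could not move because each gene had a single line. No called value turned. Low read numbers limit Ptgs2, Hpgds in WT 5-day cells and Alox5ap in WT 3-week cells.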
